A study of Mus musculus with 34 samples.

Results

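The CEBPα sites of mouse macrophages that carried neither PU.1 nor an AP-1 protein numbered 2314, or 12.4% of the 18721 CEBPα loci in the series. They were chosen by peak calls alone. CEBPα peaks found after vehicle and after KLA were merged where they shared at least 1 bp, and a locus was kept when it overlapped no peak in the 2 PU.1 lists and none in the 12 lists for ATF3, cJun, JunD, Fos, Fra2 and JunB in wild-type C57BL/6 cells. Of the loci that were not kept, 10199 overlapped both PU.1 and AP-1, 5312 overlapped AP-1 without PU.1 and 896 overlapped PU.1 without AP-1. These 4 class sizes follow from the rule and were not tested. The number of loci depended on which peaks were admitted. It was 720 when the CEBPα peaks were limited to those with the top reproducibility score, 398 with the strongest 50% of each CEBPα list, and 1485 when AP-1 lists of BALB/cJ and PPARγ-knockout cells were added to the rule.

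The study mapped transcription factors by chromatin immunoprecipitation followed by sequencing (ChIP-seq) in thioglycollate-elicited macrophages (TGEMs), the cells that gather in the peritoneum after an irritant is injected. The cells came from male 8-week C57BL/6 mice (genotype C57Bl/6EiJ in the labels) and were treated for 1 h with PBS, the vehicle (Veh), or with 100 ng/mL Kdo2 lipid A (KLA), the part of bacterial lipopolysaccharide that activates TLR4. Each factor and treatment is represented by a single list of peaks that passed a reproducibility filter over replicate experiments, so treatments were compared here without replicate error. PPARγ was mapped in Veh cells of the same strain, and AP-1 proteins were also mapped in BALB/cJ cells (Veh and KLA) and in Veh cells of C57BL/6 mice labelled PPARγ knockout, for which the sources used here do not give the targeting strategy. All 10 macrophage marker genes examined, among them Adgre1, Csf1r and Cd68, had a PU.1 Veh peak within 5 kb, against 5 of 8 neutrophil, 2 of 4 B cell and 2 of 4 T cell markers. The PU.1 Veh list holds 41573 peaks, and its share over all genes is not given here, so these counts are a description only. A CEBPα Veh peak was found at 10, 3, 2 and 0 of these markers. Over all 21938 protein-coding genes, 6812 had a CEBPα locus of either treatment. Of the markers, 1 macrophage gene had a locus without PU.1 or AP-1.

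CEBPα is a basic leucine zipper protein that binds DNA as a dimer to a palindrome made of opposed GCAA half-sites. It is known for its part in the formation of myeloid cells, in adipocytes and in liver, and in macrophages it commonly lies beside PU.1, the ETS protein that establishes much of the myeloid enhancer repertoire. AP-1 proteins, dimers of the Jun, Fos and ATF families, share the leucine zipper fold but prefer the TRE element TGANTCA, and CEBP and ATF proteins can also pair on a composite site that joins a half-site of each.

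The central 200 bp of 9 of these loci are shown because they carry the CEBP motif, which was more frequent at these loci than at the remaining CEBPα sites. They were the highest-ranked loci with that motif among sites found in both treatments that lacked a PPARγ peak (the first 3), after KLA only (the next 2), after Veh only (the next 2) and with a PPARγ peak (the last 2). The sequences are the plus strand of GRCm38 (mm10), and capitals mark each match to the CEBP motif TTGCNNAA on either strand.
Site nearest Jph3, chr8:121695623-121695822: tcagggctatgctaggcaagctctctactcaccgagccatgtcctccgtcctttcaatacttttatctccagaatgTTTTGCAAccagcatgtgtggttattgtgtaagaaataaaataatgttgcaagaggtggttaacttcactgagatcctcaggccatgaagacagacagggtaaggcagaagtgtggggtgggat
Site nearest Cox4i1, chr8:120697793-120697992: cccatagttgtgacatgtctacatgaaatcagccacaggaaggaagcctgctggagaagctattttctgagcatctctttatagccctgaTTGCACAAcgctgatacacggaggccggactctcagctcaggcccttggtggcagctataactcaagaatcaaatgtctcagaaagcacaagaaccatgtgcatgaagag
Site nearest Gpsm1, chr2:26325865-26326064: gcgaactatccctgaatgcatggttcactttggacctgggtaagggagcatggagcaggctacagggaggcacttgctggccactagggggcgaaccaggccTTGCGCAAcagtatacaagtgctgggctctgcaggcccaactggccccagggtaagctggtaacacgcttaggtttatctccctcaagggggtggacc
Site nearest Tnip2, chr5:34518073-34518272: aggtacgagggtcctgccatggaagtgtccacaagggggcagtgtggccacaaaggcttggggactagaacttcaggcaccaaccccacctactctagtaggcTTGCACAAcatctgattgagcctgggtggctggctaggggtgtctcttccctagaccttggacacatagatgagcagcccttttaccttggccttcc
Site nearest Tank, chr2:61545608-61545807: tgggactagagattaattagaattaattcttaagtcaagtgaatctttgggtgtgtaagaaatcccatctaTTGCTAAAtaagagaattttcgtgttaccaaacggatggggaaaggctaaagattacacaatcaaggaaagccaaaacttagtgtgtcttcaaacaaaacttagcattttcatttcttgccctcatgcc
Site nearest Arrdc3, chr13:81107537-81107736: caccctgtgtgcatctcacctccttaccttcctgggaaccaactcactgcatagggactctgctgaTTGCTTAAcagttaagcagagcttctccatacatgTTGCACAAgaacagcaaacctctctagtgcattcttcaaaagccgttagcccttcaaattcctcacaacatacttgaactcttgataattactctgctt
Site nearest Pon1, chr6:5199975-5200174: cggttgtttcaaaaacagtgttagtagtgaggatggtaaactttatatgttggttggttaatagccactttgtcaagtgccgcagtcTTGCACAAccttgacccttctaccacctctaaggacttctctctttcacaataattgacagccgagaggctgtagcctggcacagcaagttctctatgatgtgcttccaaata
Site nearest Gatb, chr3:85571385-85571584: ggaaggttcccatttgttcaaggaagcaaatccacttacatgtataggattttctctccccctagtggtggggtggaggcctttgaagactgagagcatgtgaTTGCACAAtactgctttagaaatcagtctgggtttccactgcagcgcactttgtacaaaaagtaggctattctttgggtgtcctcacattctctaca
Site nearest Rcn1, chr2:105428205-105428404: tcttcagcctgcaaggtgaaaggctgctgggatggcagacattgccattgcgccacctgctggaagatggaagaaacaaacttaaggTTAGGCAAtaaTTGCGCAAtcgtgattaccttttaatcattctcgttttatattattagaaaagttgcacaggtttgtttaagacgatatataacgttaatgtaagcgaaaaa

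The site nearest Gpsm1 and the site nearest Rcn1 each held the perfect palindrome TTGCGCAA. The site nearest Rcn1 carried a further match 3 bases before it, and the site nearest Arrdc3 also held 2 matches. The site nearest Gpsm1 lay 70 bp upstream of a transcript start that is internal to the gene. The centres of the other 8 lay in introns or in intergenic sequence.

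The loci without PU.1 or AP-1 ranked low within each CEBPα list. Their count, the number of ChIP-seq reads given for a peak, had a median of 52 in Veh (range 30 to 249, 1626 loci) and 46 in KLA (range 29 to 200, 1309 loci). At the other CEBPα loci the medians were 81 (range 30 to 463) and 72 (range 29 to 405). Ranks were taken within a list, and counts of the 2 lists are not normalised to each other. The median locus stood at the 25.1st percentile of all CEBPα Veh peaks and at the 22.5th percentile of all KLA peaks, against the 54.3rd and 53.3rd for other loci.

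The share of loci without PU.1 or AP-1 fell through each list as the count rose. In the lowest decile of the Veh list they made up 28.7% of loci, and in the highest decile 0.852%, or 11 of 1291. After KLA the same shares were 23.2% and 0.470%. Every decile of each list held some of these loci.

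**Figure D1:**
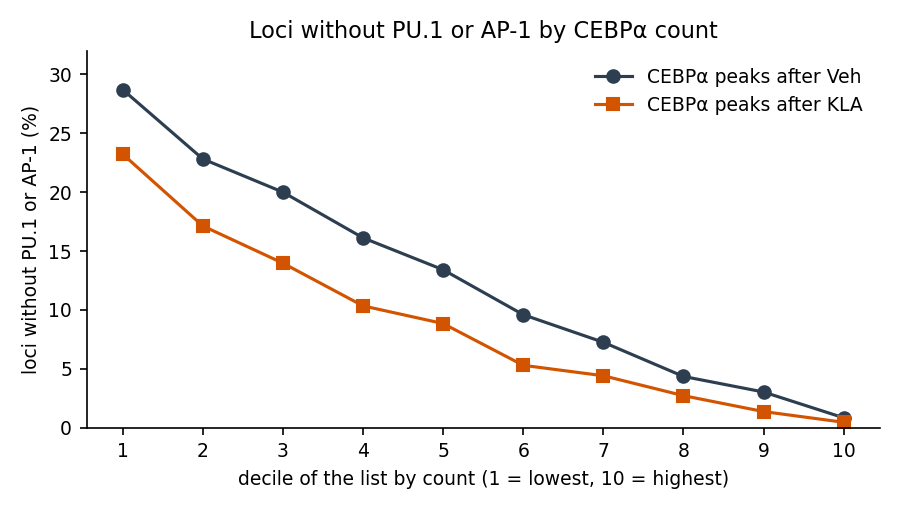
Share of CEBPα loci that carried neither PU.1 nor AP-1 (vertical axis, percent) in each decile of the CEBPα list by count (horizontal axis, lowest to highest), for Veh (circles) and KLA (squares). The share fell from 28.7% to 0.852% in Veh and from 23.2% to 0.470% in KLA.

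The strongest of these loci were nonetheless well above the middle of the CEBPα lists. The 10 with the highest Veh count and the 10 with the highest KLA count came to 16 distinct loci, all found in both treatments, and 13 of the 16 held the CEBP motif. The highest Veh count was 249, with 124 after KLA, at chr17:84268658-84268897, in an intron of Thada and 38.9 kb from the nearest protein-coding transcript start, which is internal to that gene. This locus held no match to the motif. The next was a site 3.76 kb upstream of Srd5a3, a reductase of the dolichol pathway that supports protein glycosylation, with a Veh count of 241 and a KLA count of 125. It lay 38 bp from the nearest excluded peak and overlapped PPARγ.

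The highest KLA count was 200, with 200 in Veh as well, at chr2:105428187-105428422, which lies 29.0 kb upstream of Rcn1, a calcium-binding protein of the endoplasmic reticulum. The nearest PU.1 or AP-1 peak was 246960 bp away, although AP-1 peaks did overlap the locus in BALB/cJ cells and in PPARγ-knockout cells. The site near Gatb, a subunit of the mitochondrial glutamyl-tRNA amidotransferase, followed with 178 in KLA and 218 in Veh. Of the 16 loci, 2 had a higher KLA count than Veh count, 2 were equal and the remaining 12 were lower, the counts being taken as deposited. Others of the 16 lay nearest the protein-coding starts of Jph3, Cox4i1, Tex33, Papss2, Gm5426, Sipa1l2, Snx16 and Fzd5, and the last, the receptor for several Wnt ligands, had 146 in Veh and 136 in KLA.

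Several of the strong loci sat at a transcript start. The site 15 bp downstream of the start of Abcc5, an organic anion transporter, had a count of 146 in Veh and 170 in KLA. At Meis1, a homeodomain factor of haematopoietic progenitors, the centre lay 26 bp upstream of the start, with 163 in Veh and 138 in KLA and with a PPARγ peak. A site 56 bp upstream of Eid2b had 162 and 138. The site at Gpsm1, a G-protein regulator, had 203 and 168. A site 535 bp upstream of the noncoding 2310067P03Rik had 163 and 86.

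By position the loci without PU.1 or AP-1 resembled the remaining CEBPα sites. Within 1 kb of a transcription start site (TSS) lay 448, or 19.4% (95% Wilson interval 17.8 to 21.0), against 18.4% of the 16407 other CEBPα loci. The difference did not pass the test (odds ratio 1.07, 95% interval 0.956 to 1.19, two-sided Fisher's exact test, adjusted p = 0.253 over 8 such tests). The call turned on how loci were defined. By the same exact test the odds ratio rose to 1.15 (adjusted p = 0.0187) with starts of protein-coding transcripts alone, and fell to 0.800 (adjusted p = 0.00112) when loci within 500 bp of any PU.1 or AP-1 peak were set aside. In this and the tests that follow loci are the units, so a p-value compares these sets of loci and not replicate cultures.

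Introns held 1043 of the loci (45.1%), intergenic sequence 726 (31.4%), coding exons 24, UTRs 34 and exons of noncoding transcripts 39. The median distance to a TSS was 6212 bp, and 884 loci (38.2%, against 38.9% of other loci) were more than 10 kb from one. Sites found in both treatments were the nearest to genes, with a median of 5043 bp, compared with 6572 bp for sites found in Veh only and 6356 bp for sites found in KLA only. Base composition was also similar, with a median of 45.5% G+C, and 46.5% at other CEBPα loci. On the X chromosome 54 of 295 CEBPα loci (18.3%) were free of PU.1 and AP-1, and on the other chromosomes with such loci the share ran from 9.88% (chromosome 16) to 15.0% (chromosome 19).

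The loci differed in the motif at their centre. A CEBP motif (TTGCNNAA, either strand, central 200 bp) was present in 1478 of the 2314 loci, or 63.9% (61.9 to 65.8), and in 38.0% (37.3 to 38.8) of other CEBPα loci. The odds ratio was 2.88 (2.63 to 3.15, Fisher's exact test, adjusted p = 3.77e-121). By class, the share among other loci was 51.7% (48.4 to 54.9) with PU.1 but without AP-1. It was 43.6% with AP-1 but without PU.1, and 34.0% with both. When loci were compared within deciles of the count rank the odds ratio was 4.64, and the motif was more frequent at stronger loci of both kinds. Among loci without PU.1 or AP-1 it rose from 56.5% in the lowest decile to 86.7% of the 15 in the highest, and among other loci from 21.8% to 66.6%. Windows of 200 bp taken every 50 kb along the genome, reweighted to the base composition of these loci, held the motif in 8.32%.

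**Figure D2:**
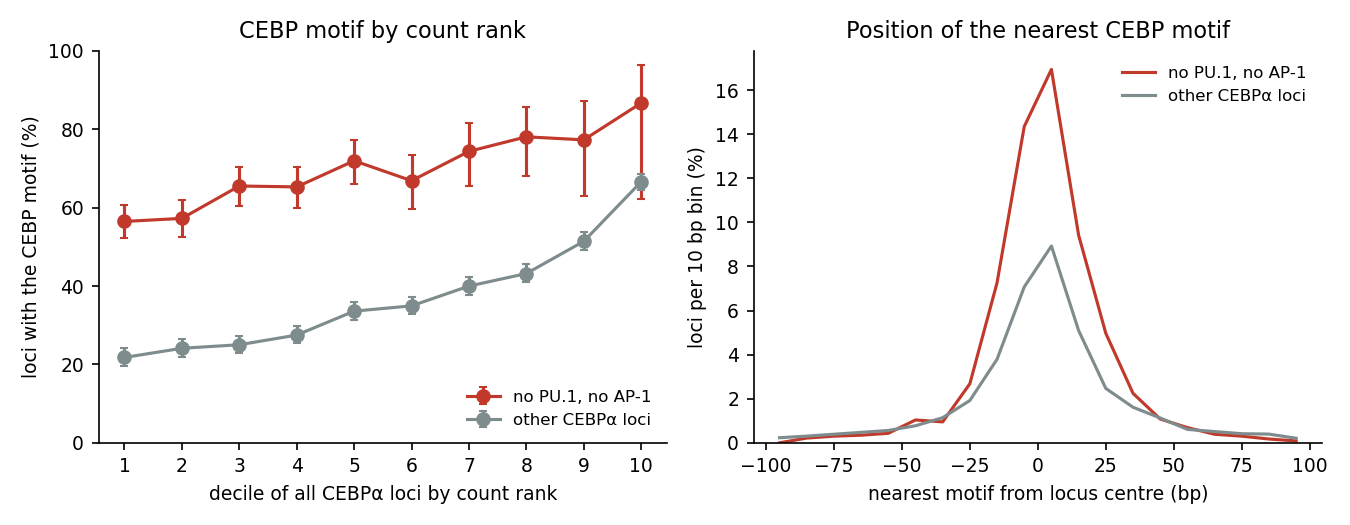
Left, share of loci with the CEBP motif TTGCNNAA (vertical axis, percent, with 95% Wilson intervals) in each decile of all CEBPα loci by count rank. Right, share of loci (percent per 10 bp bin) by position of the nearest motif from the locus centre in bp. Loci without PU.1 or AP-1 (red) lay above other CEBPα loci (grey) in every decile, and in both sets the motif gathered at the centre.

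The motif was central and often close to the palindrome. Its nearest copy lay a median of 10 bp from the locus centre, with 1233 of the 1478 (83.4%) within 25 bp, compared with 13 bp and 72.7% at other loci. A total of 223 loci (9.64%) held 2 or more copies, against 5.11% of other loci. The perfect palindrome TTGCGCAA, which contains a CpG, was present in 123 loci (5.32%), 0.890% of other loci and 0.0279% of reweighted windows. The commonest form was TTGCACAA, which made up 26.3% of the matches at these loci and 18.1% at other loci. Of all 8-base words it was also the word whose share of loci exceeded the reweighted windows by most, at 19.0% of loci and 0.578% of windows. The same word came first at other CEBPα loci, at 7.65%, but there PU.1 words such as AGGAAGTG followed, which was in 8.59% of other loci and in 1.82% of the loci without PU.1 or AP-1.

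Motifs of the excluded factors were less frequent than at other CEBPα loci, and the AP-1 element was near the level of genomic windows. Among the loci without PU.1 or AP-1, 8.08% (7.04 to 9.26) held ACTTCCT, the PU.1 motif, compared with 19.7% of other CEBPα loci and 4.94% of reweighted windows (odds ratio 0.358, 0.307 to 0.418, Fisher's exact test, adjusted p = 8.68e-49). The AP-1 TRE motif TGANTCA was present in 5.10% (4.28 to 6.07), against 22.6% of other loci and 5.82% of windows (odds ratio 0.184, 0.152 to 0.222, same exact test, adjusted p = 1.11e-108). The composite TGATGCAA, which joins an ATF and a CEBP half-site and can overlap the CEBP motif, was present in 2.07% (1.57 to 2.74), against 4.88% of other loci and 0.560% of windows (odds ratio 0.413, 0.307 to 0.554, same exact test, adjusted p = 4.19e-11). Among peaks with the top reproducibility score of 1000 the odds ratio fell further, to 0.0849 for the TRE and 0.132 for the composite. Classes of other loci that lacked the same factor had lower shares than the loci without PU.1 or AP-1. With PU.1 but without AP-1, 2.46% (1.63 to 3.69) held the TRE and 1.00% (0.529 to 1.90) the composite. With AP-1 but without PU.1, 5.91% (5.31 to 6.58) held the PU.1 motif. These differences were not tested. Other CEBPα loci were defined by a peak of PU.1 or AP-1. Lower shares of these motifs at the loci without such peaks were therefore largely built into the 3 tests. A match of letters is a description of the sequence and does not show binding.

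Other motifs were counted without a test. CCAAT, the NFY element, was in 26.4% of the loci, 25.0% of other CEBPα loci and 28.1% of windows. The Runx motif TGTGGTT was in 6.87%, against 7.68% and 4.47%. The E-box CACGTG was in 3.80%, against 4.01% and 2.29%. The CRE TGACGTCA was in 8 loci (0.346%), and 0.616% of other loci. A CTCF core motif was in 28 loci, or 1.21% (0.839 to 1.74), against 0.341% of other loci and 0.138% of windows. An NFkB motif was also in 28, or 1.21%, where other loci had 2.04% and windows 0.657%. Of these 28, 25 were KLA-only loci, or 3.63% (2.47 to 5.31) of that class. The motif was in 3 Veh-only loci (0.299%) and in 0 of those found in both treatments. Other CEBPα loci were not split by treatment for this motif.

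**Figure D3:**
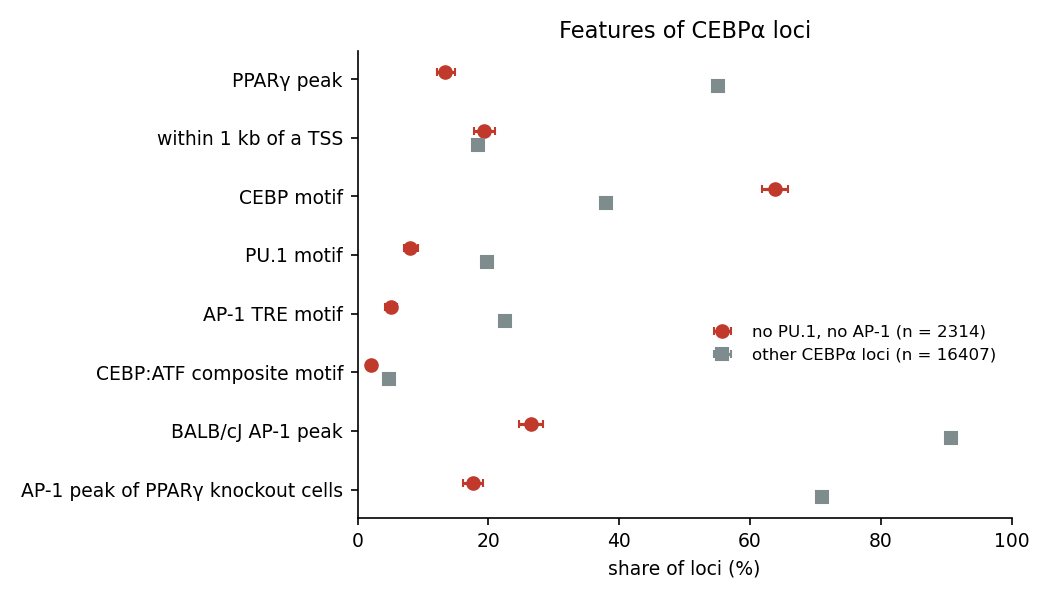
Share of loci (horizontal axis, percent, with 95% Wilson intervals) that held each feature, for the 2314 CEBPα loci without PU.1 or AP-1 (red circles) and the 16407 other CEBPα loci (grey squares). The CEBP motif was the feature more frequent at the former, the TSS shares lay close together, and the other 6 features were less frequent.

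PPARγ, the nuclear receptor that partners CEBPα in adipocytes, overlapped few of the loci. Of the 2314 loci 311 (13.4%, 12.1 to 14.9) overlapped a PPARγ Veh peak, compared with 55.0% of other CEBPα loci and 49.9% of all CEBPα loci. The odds ratio was 0.127 (0.112 to 0.144, Fisher's exact test, adjusted p = 1e-300, the smallest value given here). By class, the share among other loci was 27.7% (24.8 to 30.7) with PU.1 but without AP-1. It was 38.9% with AP-1 but without PU.1, and 65.8% with both. At the loci without PU.1 or AP-1 the share rose with the count, from 6.92% in the lowest decile by rank to 33.3% of the 15 loci in the highest. Other CEBPα loci rose from 39.8% to 80.2% over the same deciles, so the 2 sets did not meet in any decile. Loci found in both treatments overlapped PPARγ in 19.6% (122 of 621), Veh-only loci in 13.7% and KLA-only loci in 7.41%. No PPARγ list after KLA was used here.

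Loci with a PPARγ peak had a higher share at a TSS, with 26.0% (21.5 to 31.2) within 1 kb compared with 18.3% (16.7 to 20.1) of loci with no PPARγ peak, a difference that was not tested. The CEBP motif was present in 59.2% and 64.6% respectively, and these intervals overlapped (53.6 to 64.5 and 62.5 to 66.7). The DR1 element of nuclear receptors, searched as its perfect repeat, was in 0 of the 311, and was in 0.0460% of windows. The 5 strongest loci with PPARγ were those nearest Srd5a3, Gatb, Rcn1, Tex33 and Gm5426, with Veh counts of 241, 218, 200, 190 and 171. The corresponding KLA counts of 125, 178, 200, 72 and 163 were lower in 4 of the 5.

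Treatment divided the loci unevenly. CEBPα peaks were found in Veh only at 1005 loci (43.4%, 41.4 to 45.5), in both treatments at 621 (26.8%, 25.1 to 28.7) and in KLA only at 688 (29.7%, 27.9 to 31.6). Over all CEBPα loci the same shares were 21.0%, 47.9% and 31.2%. No test was made, because there is 1 list per treatment and because the rule removed loci with AP-1 after either treatment. Pooled over count ranks, the KLA-only share was near that of all CEBPα loci, and the Veh-only share above it. Loci with PU.1 but without AP-1 had 49.9% (46.6 to 53.2) in Veh only and 16.9% (14.5 to 19.4) in KLA only, and loci with AP-1 but without PU.1 had 16.4% and 38.6%.

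Count moved with treatment class. The median Veh count was 69 at loci found in both treatments and 46 at loci found in Veh only, and the median KLA counts were 54 and, in KLA only, 41. Within deciles of the count rank, Veh-only loci were still more frequent among loci without PU.1 or AP-1 than among other loci in the lowest 9 deciles, for example 54.5% against 35.6% in the third and 26.5% against 15.5% in the sixth. KLA-only loci were less frequent than among other loci in every decile. Their share was 26.1% against 46.1% in the third and 14.9% against 32.8% in the sixth. In the highest decile all 15 loci without PU.1 or AP-1 were found in both treatments. The part of peak detection near the threshold in this split was not tested. Among the strongest 50% of peaks in each list the KLA-only share was 18.1%.

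**Figure D4:**
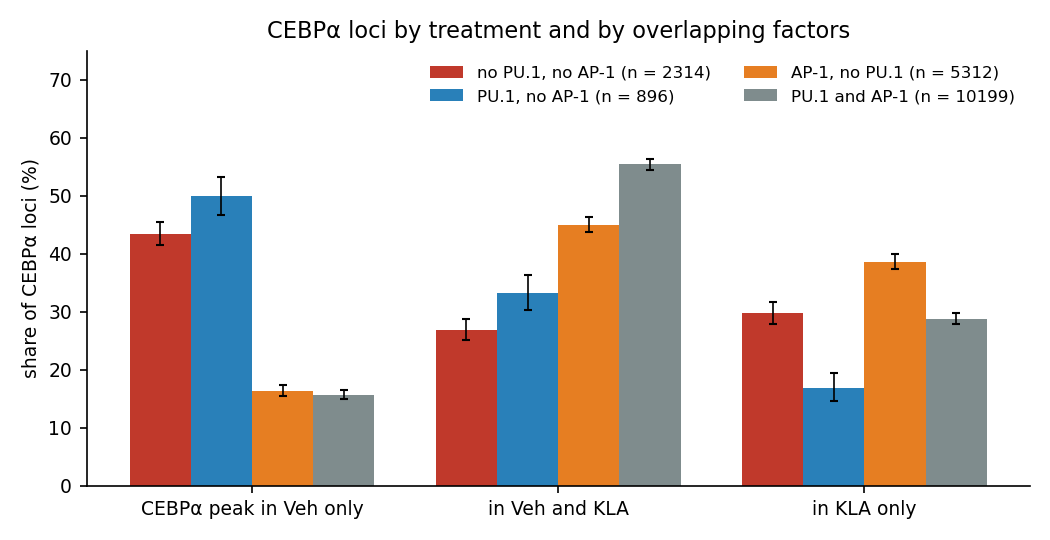
Share of CEBPα loci (vertical axis, percent, with 95% Wilson intervals for counting error) found in Veh only, in both treatments or in KLA only, for loci grouped by the factors that overlapped them. Loci without PU.1 or AP-1 (red) were found in Veh only in 43.4%, below loci with PU.1 alone (blue, 49.9%) and above loci with AP-1 (orange and grey, 16.4% and 15.7%).

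At the 621 loci found in both treatments the KLA count relative to the Veh count was lower than at CEBPα loci generally. The median log2 ratio was -0.32, with a range of -1.77 to 1.23, and was -0.12 over all 8965 shared loci. In all, 187 of the 621 (30.1%) lay above the median of all shared loci. The medians were -0.46 at the 298 shared loci with PU.1 but without AP-1, -0.06 at those with AP-1 but without PU.1, and -0.10 at those with both. These are values of 1 list per treatment, unnormalised and with no test.

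The loci at the ends of that range were looked up after their values were seen. The lowest were a site 5.40 kb upstream of Nr2c1, an orphan nuclear receptor, with 160 in Veh and 47 in KLA, and an intronic site in Acsl1, the long-chain acyl-CoA synthetase, with 144 and 45. The highest were a site 153 kb upstream of Snx9 with 44 and 103, one 52.9 kb downstream of the start of Chst11 with 44 and 100, and one 6.76 kb downstream of a transcript start inside Naa15 with 43 and 81. A site 977 bp downstream of the start of Il27, a cytokine subunit gene, had 35 and 64. Relative to the median of all shared loci, 28 of the 621 loci (4.51%) were lower by more than 1 log2 unit and 3 (0.483%) were higher by as much, against 274 (3.06%) and 389 (4.34%) of all 8965 shared loci.

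The 4 loci printed above for a single treatment were the strongest of their kind with a CEBP motif outside chromosome 18. The strongest KLA-only locus had a KLA count of 131 and lay 4.18 kb upstream of Tnip2, an A20-binding inhibitor, and the next had 117 and lay 32.9 kb upstream of Tank, a TRAF-binding adaptor. Neither had a Veh peak. The Veh-only loci were an intronic site with a count of 135, for which Arrdc3 was the nearest protein-coding start at 217 kb, and a site 6.13 kb upstream of Pon1, a serum paraoxonase, with a count of 119.

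Whether the loci lack AP-1 in other cells was examined with lists that the rule did not use. An AP-1 peak was present in at least 1 BALB/cJ list at 613 of the 2314 loci (26.5%, 24.7 to 28.3), compared with 90.7% of other CEBPα loci and 82.7% of all (odds ratio 0.0371, 0.0334 to 0.0413, Fisher's exact test, adjusted p = 1e-300). This contrast was largely built into the test, because most other loci had a wild-type AP-1 peak by the rule. Among loci with PU.1 but without AP-1 in wild-type cells the share was 44.1% (40.9 to 47.4), still above 26.5%. That difference was not tested. The single BALB/cJ lists covered between 0 and 220 of the loci without PU.1 or AP-1. Fos after KLA covered the most at 9.51%, followed by ATF3 after KLA at 8.12%, ATF3 and JunD in Veh at 7.61% each and JunD after KLA at 7.30%. cJun covered 0.475% after KLA and 0.994% in Veh. JunB after KLA covered 1.69%, and the JunB Veh list, which holds 9 peaks, covered none. The Fos Veh list of BALB/cJ cells held 0 peaks and could cover none.

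In PPARγ-knockout cells 408 loci (17.6%, 16.1 to 19.2) overlapped an AP-1 Veh peak, against 71.0% of other CEBPα loci and 64.4% of all (odds ratio 0.0872, 0.0780 to 0.0976, Fisher's exact test, adjusted p = 1e-300). This contrast too was largely built into the test, because most other loci had a wild-type AP-1 peak by the rule. Among loci with PU.1 but without AP-1 in wild-type cells the share was 30.1% (27.2 to 33.2). ATF3 accounted for most of the 408, with 321 loci, and JunD for 130, whereas cJun overlapped 2. Loci with a PPARγ peak in wild-type cells overlapped knockout AP-1 in 33.4% (104 of 311), and loci without one in 15.2% (304 of 2003), with no test of the difference. The same 2 groups overlapped BALB/cJ AP-1 in 39.9% and 24.4%. Knockout AP-1 overlap also differed with the count, at 12.4% in the lowest decile by rank and 46.7% of the 15 loci in the highest. Wild-type AP-1 overlap is 0 in both by the rule. Of all 2314 loci 1485 (64.2%) overlapped no AP-1 peak in any of the BALB/cJ or knockout lists, and 1349 of these also lacked PPARγ.

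**Figure D5:**
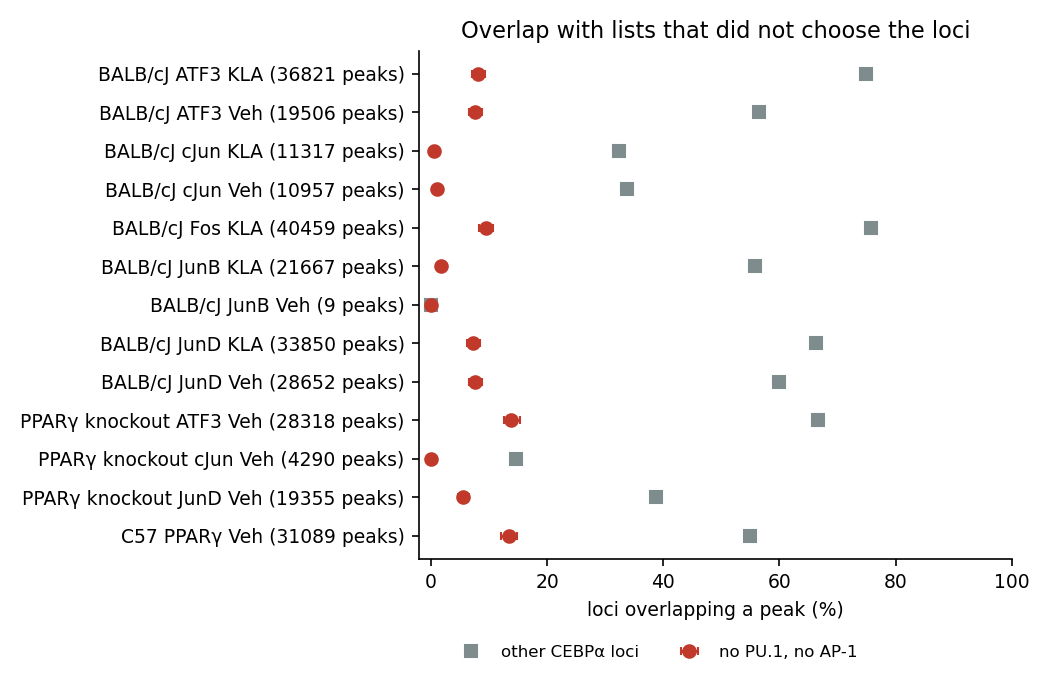
Share of loci (horizontal axis, percent) that overlapped a peak in each list that the rule did not use, for loci without PU.1 or AP-1 (red circles, with 95% Wilson intervals) and other CEBPα loci (grey squares). Shares ran from 0% to 13.9% at the former, the highest being ATF3 in PPARγ-knockout cells, and were higher at other loci in each list shown, although in the 9-peak JunB Veh list both were near 0.

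Many of the loci lay in the neighbourhood of the factors they lacked. The nearest PU.1 or AP-1 peak was at a median of 2263 bp, with 591 loci (25.5%) within 500 bp and 826 (35.7%) within 1 kb. At the edge of the rule, 105 loci had an excluded peak within 50 bp, and 86 of the other CEBPα loci overlapped one by 50 bp or less. The median distance was similar for AP-1 (4156 bp) and PU.1 (3964 bp). The 1723 loci more than 500 bp from either held the CEBP motif in 66.0% and a BALB/cJ AP-1 peak in 24.8%, close to the values for all 2314, and 242 of them overlapped PPARγ.

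The nearest protein-coding starts belonged to 1921 genes, of which 1605 had a single locus, 259 had 2, 43 had 3 and 14 had 4 or more. The genes with most were noted after the counts were seen. Nrp1, a semaphorin and VEGF co-receptor, had 7 of its 16 CEBPα loci without PU.1 or AP-1, 6 of them found in Veh only, spread from 2.38 kb to 328 kb from its start. Hivep2, a zinc finger protein that binds κB-like sites, had 5 of 22, of which 4 were found in KLA only. Fam49a had 5 of 17 and Trps1, a GATA-type repressor, 5 of 27. Bcor, a BCL6 corepressor, had 4 of 6.

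Of 21938 protein-coding genes 1662, or 7.58%, had a locus without PU.1 or AP-1 within 5 kb of the gene body, and 6812 had any CEBPα locus. The lists of genes examined together placed 24 such loci at 19 genes. Of these 24 loci 11 were found in Veh only, 8 in both treatments and 5 in KLA only, 13 were intronic and 17 held the CEBP motif. Genes with a locus numbered 4 of 15 for cell cycle and growth control, 4 of 24 for lipid and adipocyte genes, 4 of 24 for inflammatory response genes, 3 of 23 for macrophage genes, 2 of 12 for mitochondrial and iron genes, 1 of 7 for the CEBP family, 1 of 18 for liver metabolic genes and 1 of 19 for granule and neutrophil genes. Gene length differs between lists and no test was made.

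Among CEBP family genes Cebpg, a partner that lacks an activation domain, had 2 of its 3 CEBPα loci in this class. One, 51 bp downstream of the gene's start, had a Veh count of 54 and no KLA peak, and the other, 4.52 kb downstream of it, had 72 and 48. Neither held the CEBP motif.

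Loci at the lipid genes were intronic. Acsl1 had 2, of which the first had a Veh count of 144 and a KLA count of 45 with a PPARγ peak, and the second a Veh count of 32 and no KLA peak. Both were more than 10 kb from any PU.1 or AP-1 peak. Pparg itself had 2 intronic loci of 9, with counts of 59 and 43 at the first, and 48 in Veh only at the second. Cd36, the scavenger receptor that takes up oxidised lipoproteins, had 1 of 10 with 83 in Veh and 100 in KLA. Scd2, a fatty acid desaturase, had its sole CEBPα locus here with a Veh count of 126. Apoe, the apolipoprotein in the liver list, likewise had its sole CEBPα locus here, an intergenic one with 138. Neither locus had a KLA peak, and neither held the CEBP motif.

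Inflammatory genes had loci of each treatment class. Nfkbiz, which encodes the nuclear inhibitor IκBζ, had 60 in Veh and 55 in KLA at an intronic locus. Saa3, an acute-phase gene with a CEBP-dependent promoter, had 61 and 45 at a locus 4.03 kb upstream. Tnfaip3, which encodes A20, had a Veh-only locus with a count of 61 at a transcript start. Socs3, an inhibitor of cytokine receptor signalling, had a KLA-only locus with 51. The macrophage genes Mrc1, the mannose receptor, and Clec4d, a C-type lectin, had a Veh-only count of 56 and a KLA-only count of 36.

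Each of the 4 growth control genes had a single locus. Ccnd2, a D-type cyclin, had 86 in Veh and 75 in KLA in the UTR, 13279 bp from the nearest excluded peak. Myc had a KLA-only locus with 71. Cdkn1b, a cyclin-dependent kinase inhibitor, and Rb1, the retinoblastoma protein, had Veh-only loci with 68 and 34. Of the mitochondrial and iron genes, Slc7a11, the cystine transporter, had a KLA-only intronic locus with 93, and Ppargc1b, a coactivator of mitochondrial genes, had 2 loci, with 59 in Veh and 61 in KLA at the first and 35 in KLA only at the second. The neutrophil collagenase Mmp8 had 2 Veh-only loci with 54 and 63, both with the CEBP motif.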

How the data were processed

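Peak lists for 30 ChIP-seq experiments on mouse TGEMs were analysed; the 4 input samples were not used. Per the study's methods the authors mapped reads to mm10 with Bowtie2 (BALB/cJ reads to a custom strain genome), called peaks with HOMER against input and kept peaks with an IDR below 0.05 over replicates, 1 list per condition. The deposited counts are whole numbers of reads per peak, and how replicates were combined is not given in the sources used here. The deposited score is the scaled IDR, from 540 to 1000, used only as a filter. Counts summed to 1182110 (CEBPα Veh) and 1257580 (CEBPα KLA) and are not normalised. Loci were ranked by count within a list, and KLA and Veh counts of shared loci were also set side by side, as log2 ratios beside the median of all shared loci, with no test. Samples were grouped by GEO's labels, and coordinates were read as 1-based and compared as deposited.

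Overlaps of at least 1 bp, motif searches in GRCm38, GENCODE M21 distances, Wilson intervals and two-sided Fisher's exact tests with Benjamini-Hochberg adjustment over 8 shares were computed in Python 3.11.15 (numpy 2.4.6, pandas 2.3.3, scipy 1.17.1, pysam 0.24.0), after the steps were tested on simulated data. Intervals cover counting error only. Neighbouring loci are not independent. Each peak's genomic position was annotated by its centre. Windows of 200 bp every 50 kb gave 52951 comparison sequences. The loci, gene lists and motifs were chosen with earlier results of these data known. Genes named were those (by nearest protein-coding start unless stated) nearest the 10 highest Veh and 10 highest KLA counts, the 5 highest-ranked loci at a TSS and the 5 with PPARγ, and listed genes with a locus within 5 kb; other names were chosen after values were seen and are marked so, apart from the genes beside the printed sequences. Alternatives changed the overlap rule, the peaks admitted, the motif window and the TSS definition.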

Additional observations from a re-analysis of the deposited data

How the results depend on the processing

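Of 52 alternative values for the 8 tested shares, 47 kept their direction and side of the threshold. The exceptions all concerned the share within 1 kb of a TSS, whose odds ratio of 1.07 did not pass. It passed at 1.17 with centres within 100 bp, 1.25 with top-score peaks, 1.54 with the strongest 50% of peaks and 1.15 with protein-coding starts. It turned to 0.800 when loci within 500 bp of a PU.1 or AP-1 peak were counted as other loci. The number of loci, 2314, was 720 with top-score peaks and 398 with the strongest 50%, where fewer peaks enter, and 1485 with BALB/cJ and knockout lists added to the rule. With top-score peaks the Veh-only share was 47.4% and the KLA-only share 24.2%. With the strongest 50% the shares were 46.2% in Veh only, 35.7% in both and 18.1% in KLA only. Beyond fewer peaks or the added lists, the cause was not tested. No paired analysis was possible because each condition has 1 list. Leaving out a replicate was not possible for the same reason. The depth of the libraries is not given by the lists, so a locus without a peak may hold binding below the threshold.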
